A study of Mus musculus with 3 samples.

Results

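The CpGs described here are those at which the reduced-representation bisulfite sequencing (RRBS) library of Dnmt TKO mouse embryonic stem (ES) cells holds at least 1 methylated read among more than 10 reads. There were 5797 such CpGs among 431923 CpGs with more than 10 reads, which is 1.34% (Wilson 95% interval 1.31 to 1.38%). They were selected on their Dnmt TKO reads, so their number and their Dnmt TKO level are given as a description without a test, and everything else is compared with the 426126 CpGs at which the same library holds 0 methylated reads. The study compared wild-type ES cells with ES cells that lack DNA methyltransferases. RRBS cuts genomic DNA with MspI at CCGG and sequences the bisulfite-treated fragment ends, which enriches for CpG-rich DNA. There was 1 RRBS library per genotype, so no value below has a replicate check. Wild-type ES cells came from a mixed 129-C57Bl/6 background and were grown on feeder cells or gelatine, and Dnmt3a KO ES cells came from the same mixed background, were made with CRISPR/Cas9 and were grown on gelatine. Dnmt TKO ES cells, which lack Dnmt1, Dnmt3a and Dnmt3b, were of strain J1 and were also grown on gelatine, and all cultures received serum and LIF. Genotype, strain and culture therefore cannot be told apart between Dnmt TKO and wild type.

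DNMT3A and DNMT3B place methyl groups on CpGs that carry none, and DNMT1 copies the methylation of a CpG to the new strand after each round of replication. Dnmt TKO cells lack all 3 enzymes. Rodents have a further enzyme of this family, DNMT3C, known from the male germline. Bisulfite turns an unmethylated cytosine into a base that is read as T, so a C that is still read at a CpG is counted as methylated, whether the cytosine carried a methyl group, escaped the conversion or was misread.

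The sequences below show the kinds of place at which these CpGs lay. They are the plus strand of mm9, in lower case, and capitals mark each CpG with at least 1 methylated Dnmt TKO read. The first 2 each hold a CpG of the 10 highest levels among those with over 20 reads. The next 3 come from the clusters with the most CpGs with methylated reads, and the last 2 are places where neighbouring CpGs each had few methylated reads.
Dopey2 intron, chr16:93789507-93789558: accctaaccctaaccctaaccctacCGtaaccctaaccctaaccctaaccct
Abhd6 intron, chr14:8838550-8838631: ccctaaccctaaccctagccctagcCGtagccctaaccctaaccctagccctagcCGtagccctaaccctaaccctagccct
Gm10800 coding exon, chr2:98507266-98507347: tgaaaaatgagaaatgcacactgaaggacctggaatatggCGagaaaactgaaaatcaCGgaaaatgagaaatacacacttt
Gm10722 coding exon, chr9:3001413-3001494: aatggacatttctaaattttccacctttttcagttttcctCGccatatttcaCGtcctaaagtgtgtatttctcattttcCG
Intergenic, chr17:39982000-39982081: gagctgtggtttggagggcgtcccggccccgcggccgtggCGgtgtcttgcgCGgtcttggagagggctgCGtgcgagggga
Intergenic, chr8:77907646-77907805: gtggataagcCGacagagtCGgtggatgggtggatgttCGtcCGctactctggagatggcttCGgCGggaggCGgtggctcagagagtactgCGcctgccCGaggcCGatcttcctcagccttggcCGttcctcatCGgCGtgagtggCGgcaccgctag
Csf2ra coding exon, chr19:61301173-61301254: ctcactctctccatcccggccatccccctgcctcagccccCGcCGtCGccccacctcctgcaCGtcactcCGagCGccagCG
The first 2 windows are rows of the telomere repeat TTAGGG, read on the other strand as CCCTAA, with a CpG where the repeat has none. The windows on chromosomes 2 and 9 have the letters of the mouse major satellite, the repeat of pericentromeric heterochromatin, although GENCODE vM1 places predicted coding genes there.

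Most of these CpGs rested on a single read. Of the 5797, 5604 had 1 methylated read (96.7%), 104 had 2, 50 had 3 to 9 and 39 had 10 or more. Their depth was close to that of the other CpGs, with a median of 14 reads and an upper quartile of 18 against 13 and 16. Their median level was 7.14%, and 60 of them reached 10%, 5 reached 20% and 3 reached 50%. Over all CpGs with more than 10 reads, 7488 of 8041142 reads (0.0931%, Wilson 95% interval 0.0910 to 0.0953%) were methylated. Intervals here and below cover counting error at most, because copies from PCR and neighbouring CpGs of a read enter as if they were independent. At a CpG with 11 reads, a count of 0 methylated reads allows a level of up to 27.3% (3 counts), so CpGs without a methylated read are not shown to be unmethylated.

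The share of CpGs with methylated reads varied little with depth up to 50 reads and was far higher above it. It was 1.20% at 11 reads, 1.17% at 12 reads, 1.24% at 13 to 15 reads, 1.36% at 16 to 20 reads and 1.44% at 21 to 50 reads. Among the 1440 CpGs with over 50 reads it was 24.7% (356 CpGs, 22.6 to 27%). The share of methylated reads fell over the first 5 of these classes, from 0.110% at 11 reads to 0.0607% at 21 to 50 reads, and was 0.117% above 50 reads. Just outside the rule, 1346 of 126780 CpGs with 10 reads had a methylated read (1.06%), against 1126 of 94201 with 11 reads. The Dnmt TKO library lists proportionally more CpGs of chromosome 8 (12.8% against 7.72% in wild type) and chromosome 1 (10.5% against 6.90%). The share with methylated reads was 1.58% on chromosome 8, 1.39% on chromosome 1 and 1.90% on chromosome 17. It lay between 0.979% and 1.60% on the other autosomes and X. Of the 393 such CpGs on chromosome 17, 128 lay in a cluster with a median of 376 reads, described below. The share of methylated reads on that chromosome was 0.0754%, against 0.0931% over all CpGs.

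CpGs with methylated reads in Dnmt TKO were more methylated in the other libraries, which the selection did not use. In wild type, the mean level of the 3851 with more than 10 reads there was 38.5% (SD 36.4 over CpGs, median 33.3%). The 295156 CpGs without methylated reads had a mean of 15.3% (SD 28.9, median 0%). In Dnmt3a KO, the mean was 31.7% at 4282 CpGs with and 12.9% at 328328 CpGs without methylated reads. With the latter weighted to the same Dnmt TKO depths, the difference was 23.5 percentage points in wild type against 18.6 in Dnmt3a KO. The difference in wild type was 28.6 points at 11 reads, 24.9 at 12, 27.5 at 13 to 15, 25.2 at 16 to 20, 18.5 at 21 to 50 and 5.97 above 50 reads. The spread over CpGs was thus wider than the difference, and both groups ranged over all levels. In wild type, 808 of the 3851 CpGs (21%) had at least 80%, against 7.56% of all CpGs with a wild-type level, and 1145 (29.7%) had 0%.

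**Figure D1:**
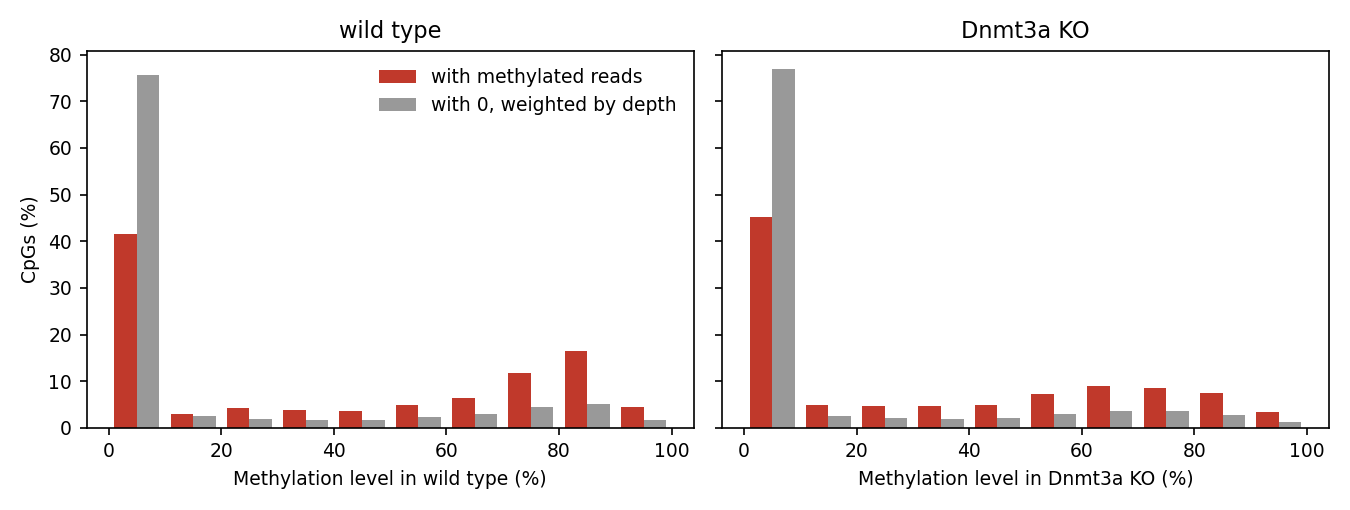
Bars give the percentage of CpGs in each interval of 10 percentage points of the methylation level in wild type (left) and Dnmt3a KO (right), for CpGs with methylated reads in Dnmt TKO (red) and for CpGs with 0, weighted to the same Dnmt TKO depths (grey). The red bars are lower in the lowest interval and higher in every other interval of both libraries.

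Sorted the other way, the share of CpGs with methylated reads in Dnmt TKO rose with the wild-type level, though not at every step. It was 0.625% of the 183266 CpGs with 0% in wild type (0.590 to 0.662%) and 1.19% at 5 to 20%. Above that, it was 3.18% at 20 to 40%, 3.01% at 40 to 60% and 3.03% at 60 to 80%. It was 3.74% at 80 to 90% (3.47 to 4.04%) and 3.08% at 90 to 100% (2.67 to 3.57%). CpGs under 20% in wild type had 0.0441% methylated Dnmt TKO reads, and those with at least 80% had 0.296%. The latter class includes 1 CpG in telomere repeats with 144 methylated of 152 reads. Among CpGs with at most 50 reads whose 36 surrounding bases occur once in mm9, the values were 0.0417% and 0.247%. Of these CpGs, 1.98% had methylated reads at 20 to 40% in wild type, 2.73% at 40 to 60% and 2.87% at 60 to 80%. With every CpG thinned to 11 reads, the share of CpGs with methylated reads was 0.436% at 0% in wild type. It was 1.45% at 20 to 40%, 2.04% at 40 to 60%, 2.24% at 60 to 80%, 2.86% at 80 to 90% and 2.44% at 90 to 100%. With either limit, the share thus rose from 20 to 80%. Sorted by the Dnmt3a KO level and without thinning, the share rose from 0.646% at 0% to 3.30% at 60 to 80% and 3.41% at 80 to 90%. It was 3.0% at 90 to 100%. With 36 bases that occur once and at most 50 reads, it was 2.84% at 40 to 60%, 2.81% at 60 to 80%, 2.84% at 80 to 90% and 3.0% at 90 to 100%. Where wild type had at least 80%, 3.73% of CpGs had methylated Dnmt TKO reads if Dnmt3a KO had 20 to 80%, and 4.01% where Dnmt3a KO also had at least 80%. The intervals of these shares, 3.41 to 4.08% and 3.56 to 4.51%, overlap.

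CpGs with methylated reads lay next to each other far more often than other CpGs did. Of the listed neighbours up to 100 bp from such a CpG, 49.2% (48.1 to 50.2%) had methylated reads themselves, against 0.665% of the neighbours of other CpGs. The share was 46.3% at 1 to 10 bp (44.8 to 47.7%), 54.2% at 11 to 25 bp (52.4 to 56.1%), 49.9% at 26 to 50 bp, 44.7% at 51 to 100 bp, 18.2% at 101 to 150 bp and 2.34% at 151 to 250 bp. At 1001 to 5000 bp it was 1.35%, with 1.71% next to other CpGs. The share thus fell steeply beyond 150 bp, and CpGs closer than that can lie on the same read. From 151 to 1000 bp it was 2.41% (1.44 to 4.01%), still above the 1.32% (1.21 to 1.43%) beside other CpGs. With the whole range of 1000 bp, 68.3% of CpGs with methylated reads had another within reach, against 14% of the others at the same depths.

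**Figure D2:**
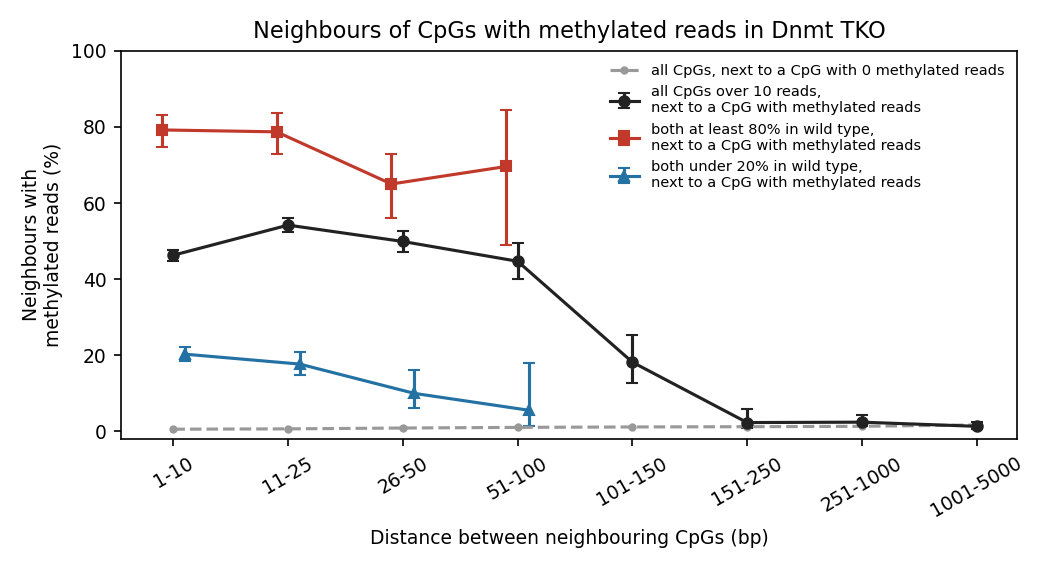
The percentage of neighbouring CpGs that have methylated reads in Dnmt TKO (points, with Wilson 95% intervals) is plotted against the distance in bp to the CpG beside them, for all CpGs and, up to 100 bp, for pairs at both of which the wild-type level was at least 80% or under 20%. Beside CpGs with methylated reads it is 44.7 to 54.2% up to 100 bp and 2.34% at 151 to 250 bp, and beside other CpGs (dashed) it stays at 0.595 to 1.71%.

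Neighbours of these CpGs had methylated reads more often where wild type was methylated. Among CpGs whose 36 surrounding bases occur once in mm9 and that had at most 50 reads, 79.2% of neighbours within 10 bp had methylated reads where both CpGs had at least 80% in wild type, and 20.3% did where both were under 20%. Within 50 bp of a CpG with methylated reads, the share rose with the neighbour's own wild-type level, from 17.7% of 2052 neighbours at 0% to 45.6% of 259 at 20 to 40%. It was 63.1% of 363 at 40 to 60%, 66.4% of 824 at 60 to 80%, 78.2% of 734 at 80 to 90% and 71.7% of 226 at 90 to 100%. The mean wild-type level of those neighbours was 29.9%, 50.7%, 71.4%, 84.5% and 93.2% in the last 5 classes. Beside CpGs without methylated reads, the share stayed between 0.516% and 1.17% over all 8 classes. Among the 2974 neighbouring pairs of which only 1 CpG had methylated reads, that CpG had a wild-type mean of 18.2% and its neighbour 17.3%. It was the higher in 789 pairs, the lower in 661 and equal in 1524.

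Consecutive listed CpGs with methylated reads, each at most 100 bp from the last, were joined into runs. There were 2650 isolated CpGs, and 976 runs of 2 or more held the other 3147 CpGs (54.3%). The 450 runs of 2 CpGs and the 363 runs of 3 or 4 were followed by 153 runs of 5 to 9 and 10 runs of 10 or more. In 913 of the 976 runs, every CpG had exactly 1 methylated read. The runs were short, with a median of 28 bp from the first base to the last.

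Isolated CpGs and those in runs lay in different places. Without repeated sequence and high coverage, the 2511 isolated CpGs had a wild-type median of 0% and a mean of 23.0% (SD 33.0, 1682 CpGs with a level), and 66.5% of them were under 20%. The 2739 CpGs in runs had a median of 70.6% and a mean of 55.5% (SD 33.6, 1671 CpGs with a level), and 24.1% were under 20%. In Dnmt3a KO, the medians were 0% and 45.8%. Within 1000 bp of a protein-coding gene start lay 38.5% of isolated CpGs and 13.6% of CpGs in runs, in other exons 22.3% and 36.6%, in introns 22.5% and 29.4%, and between genes 15.0% and 18.3%. Over all CpGs without methylated reads, these shares were 45.5%, 20.7%, 17.6% and 14.3%, and 78.3% were under 20% in wild type. The isolated CpGs were thus nearer to these values than the CpGs in runs.

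The share of isolated CpGs changed less with the wild-type level than that of CpGs in runs did. Among CpGs with another listed CpG within 100 bp, isolated ones made up 0.471% at 0% in wild type (0.440 to 0.503%), 0.948% at 20 to 40% and 0.689% at 80 to 90% (0.566 to 0.837%). CpGs in runs made up 0.146% at 0% (0.130 to 0.165%), 1.09% at 20 to 40% and 3.06% at 80 to 90% (2.80 to 3.36%). Sorted by the Dnmt3a KO level, isolated CpGs made up 0.480% at 0% and 0.739% at 80 to 90%, and CpGs in runs 0.162% and 2.17%. A run needs listed neighbours, and the part that the number of neighbours per CpG has in this difference was not tested.

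**Figure D3:**
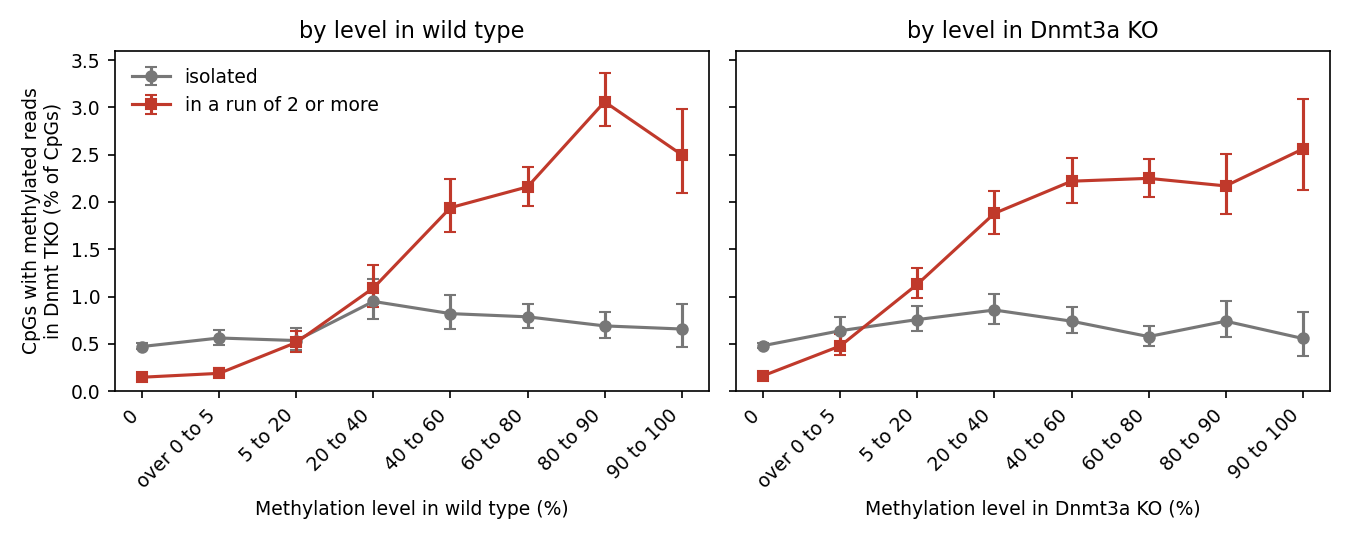
The percentage of CpGs with methylated reads in Dnmt TKO is plotted by their methylation level in wild type (left) and Dnmt3a KO (right), for isolated CpGs (grey) and CpGs in runs (red), with Wilson 95% intervals. By wild-type level, the grey points lie between 0.471% and 0.948%, and the red points of the wild-type panel lie at 0.146% for a level of 0% and at 3.06% for 80 to 90%.

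By gene part, CpGs with methylated reads were fewer at gene starts. Of all 5797, 25.8% lay within 1000 bp of the start of a protein-coding gene, against 45.5% of the CpGs without. The other shares were 27.4% against 20.7% in exons, 24.8% against 17.6% in introns, 19.1% against 14.3% between genes and 2.60% against 1.77% in genes of other types. At the same depths, the difference at gene starts was -18.3 percentage points. It was -3.19 among CpGs with over 20 reads and turned to 17 with at least 2 methylated reads required. Above 50 reads, 38.8% of CpGs with and 12.4% without methylated reads lay at gene starts. Of the 193 CpGs with 2 or more methylated reads, 70 lay in the satellite-like clusters on chromosomes 2 and 9 described below. The starts nearest to those clusters, 396 to 878 bp away, were those of predicted genes such as Gm10800. The part of these clusters in the turn was not tested. The mean wild-type level of the gene parts was 1.56% near gene starts, 32.4% in exons, 37.4% in introns and 35.6% between genes. Among CpGs under 20% in wild type, methylated reads occurred at 0.668% near gene starts, 0.740% in exons, 0.695% in introns, 1.29% between genes (1.13 to 1.47%) and 1.39% in genes of other types (1.05 to 1.83%). With every CpG thinned to 11 reads, these shares were 0.457%, 0.498%, 0.494%, 0.455% and 0.583%. Among CpGs with 20 to 80%, methylated reads occurred at 5.28% near gene starts (4.56 to 6.12%), against 2.88% in exons (2.64 to 3.14%), 2.98% in introns and 2.59% between genes. Thinned to 11 reads, gene starts were instead the lowest of these, with 1.53% against 2.03%, 2.18% and 1.90%. Among CpGs with at least 80%, they occurred at 3.49% near gene starts (18 of 516 CpGs, 2.22 to 5.45%), 3.53% in exons, 3.50% in introns and 3.75% between genes. In this last class, the intervals overlap.

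The sequence around these CpGs was poorer in G, C and CpGs. The median GC content was 59.5% against 63.5%, and the median CpG density in 200 bp was 4.50 per 100 bp against 7.0. Of CpGs preceded by A, 1.53% had methylated reads (1.44 to 1.62%), and of those preceded by G, 1.24% (1.19 to 1.29%). At least 150 bp from the nearest MspI site, where an RRBS fragment end is not expected, lay 13.8% of CpGs with and 9.64% of CpGs without methylated reads.

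Repeated sequence and very high coverage held a small part of these CpGs but most of those with several methylated reads. The 36 bases centred on the CpG occurred more than once in mm9 for 5.31% of CpGs with and 1.78% without methylated reads, a difference of 1.86 percentage points at the same depths. Methylated reads occurred at 1.29% of CpGs with 1 copy, 3.04% with 2 to 10 copies, 7.67% with 11 to 100 copies and 4.06% with over 100 copies. With every CpG thinned to 11 reads, these shares were 0.971%, 1.49%, 2.64% and 3.10%, so the order of the last 2 turned. The shares of methylated reads were 0.0859%, 0.178%, 0.106% and 0.257%. Of the 193 CpGs with 2 or more methylated reads, 128 had over 50 reads. Together those 193 held 1884 of the 7488 methylated reads.

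The largest cluster, with neighbours at most 1000 bp apart, lay on chromosome 17 (chr17:39979971-39985617, mm9), over an exon of the pseudogene AY036118 where mm9 holds a copy of the ribosomal RNA precursor gene. It held 512 CpGs with a median of 376 reads, of which 128 had methylated reads, 103 of them a single read. Over the cluster, 162 of 278260 reads were methylated (0.0582%, 0.0499 to 0.0679%). The mean level of its CpGs was 3.38% in wild type against 3.09% in Dnmt3a KO.

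The second cluster, over the coding exon of Gm10800 on chromosome 2 (chr2:98506419-98507483), had the deepest coverage. All of its 30 CpGs had methylated reads, 864 of 798065 in all (0.108%, 0.101 to 0.116%), at 46 to 132863 reads per CpG. Of the 5 CpGs with the most methylated reads, 4 lay here. They had 124 methylated of 132863 reads, 107 of 128844, 107 of 102945 and 86 of 91069, so each had a level near 0.1%: 0.0933%, 0.0830%, 0.104% and 0.0944%. The clusters at chr9:3000031-3002605, chr2:98502421-98504123 and chr9:3022862-3025610 had similar sequence, with 24 of 40, 22 of 27 and 20 of 33 CpGs. In these 4 satellite-like clusters together, 96 of 130 CpGs had methylated reads, and 1308 of 1118126 reads were methylated (0.117%, 0.111 to 0.123%), which is 17.5% of the methylated reads at CpGs with over 10 reads. Their mean level was 31.1% in wild type (108 CpGs) against 68.9% in Dnmt3a KO (119 CpGs), so the order of these libraries was the reverse of that over all CpGs.

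**Figure D4:**
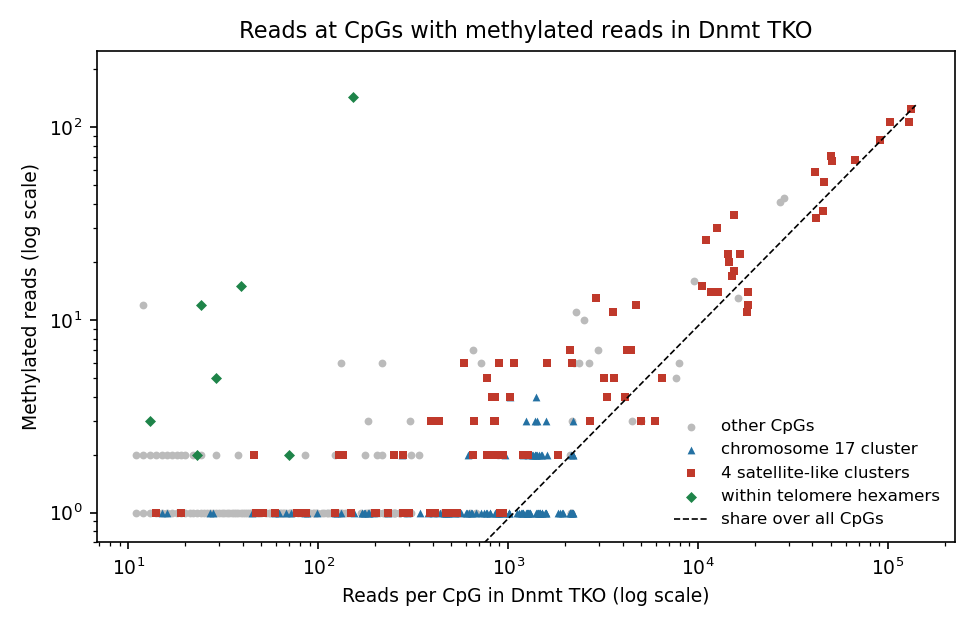
Each point gives the number of reads (x axis, log scale) and of methylated reads (y axis, log scale) at CpGs with methylated reads in Dnmt TKO, coloured by place, and the dashed line is the share of 0.0931% over all CpGs. CpGs with 0 methylated reads are not shown, so at low coverage all points lie above the line. A CpG in telomere repeats has 144 methylated reads of 152.

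Among CpGs with over 20 reads, the highest levels were in telomere repeats. The CpG at position 93789532 of chromosome 16, in an intron of Dopey2, had 144 methylated of 152 reads (94.7%, 90 to 97.3%), with 20 of 22 in wild type and 115 of 119 in Dnmt3a KO. In an intron of Abhd6 on chromosome 14, the CpGs at 8838575 and 8838605 had 5 of 29 and 2 of 70 methylated reads, with 3 of 25 and 7 of 62 in Dnmt3a KO, and the second had 0 of 16 in wild type. Also in telomere repeats but below that minimum of reads, the CpG at 130684769 in an exon at Nox1 and Xkrx on chromosome X had 3 of 13, with 0 of 18 in Dnmt3a KO. Except for the last, each of these CpGs thus had methylated reads in the Dnmt3a KO library as well. TTAGGG or CCCTAA, counted on the plus strand in the CpG and the 30 bases on each side, occurred at least 3 times at 9 of 431223 CpGs (0.00209%), a search chosen after these values were seen. Of the 9, 7 had methylated reads, 183 of 375 reads in all. The other 2 of the 9 lay near the start of Ppig on chromosome 2 and had 0 of 13 and 0 of 12.

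Of the 5 CpGs with at least 20%, 4 were among these 7 in telomere repeats. The fifth, at position 76395194 of chromosome 17, was noticed after the values were seen: 12 of 12 reads were methylated, as were 12 of 12 in wild type and 19 of 22 in Dnmt3a KO. It is intergenic, its 36 bases occur once, and no other listed CpG lies within 100 bp. Among CpGs with over 20 reads, the next in level had 2 methylated reads each: 2 of 22 in an intron of Sfi1 on chromosome 11, 2 of 24 in an exon of Fam38a on chromosome 8 and 2 of 29 in the mitochondrial gene mt-Nd5. Then came 2 of 38 within 2 long noncoding RNA genes on chromosome 4. After it, 101 CpGs were tied at 1 methylated of 21 reads. The named member of this tie was a coding CpG of the Wnt receptor gene Fzd7, with 0 of 82 in wild type and 0 of 34 in Dnmt3a KO.

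The other named clusters lay where the 36 bases around each CpG occur once. At Dtx1, at Hmg20b and on chromosome 8, nearly every CpG had a methylated read, and in Csf2ra and Sfi1 most had none. At Dtx1, a regulator of Notch signalling, all 16 CpGs of an untranslated exon part (chr5:121161631-121161707) had exactly 1 methylated read of 13 to 16. Their mean level was 5.16% in wild type against 1.06% in Dnmt3a KO, so this run lay in sequence of low methylation. In Hmg20b, which encodes a subunit of LSD1 complexes, 13 of 15 CpGs (chr10:80809333-80809422) had 1 of 19 to 24 reads, with a Dnmt3a KO mean of 0.417%. The intergenic run printed above (chr8:77907656-77907795) had methylated reads at all 14 CpGs, 1 at 8 of them and 2 at 6, and a mean of 60.1% in wild type against 54.7% in Dnmt3a KO. In Csf2ra, which encodes a subunit of the GM-CSF receptor, 20 of 82 CpGs (chr19:61301213-61303044) had 1 methylated read each, and these had a mean of 55.3% in wild type, against 32.6% over all 82. In Dnmt3a KO, the 20 had a mean of 24.1% and all 82 of 14.4%. Near the start of Sfi1, a gene with duplicated sequence in the mouse genome, 18 of 60 CpGs (chr11:3092175-3093664) had 1 methylated read each, at a median coverage of 78 reads.

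**Figure D5:**
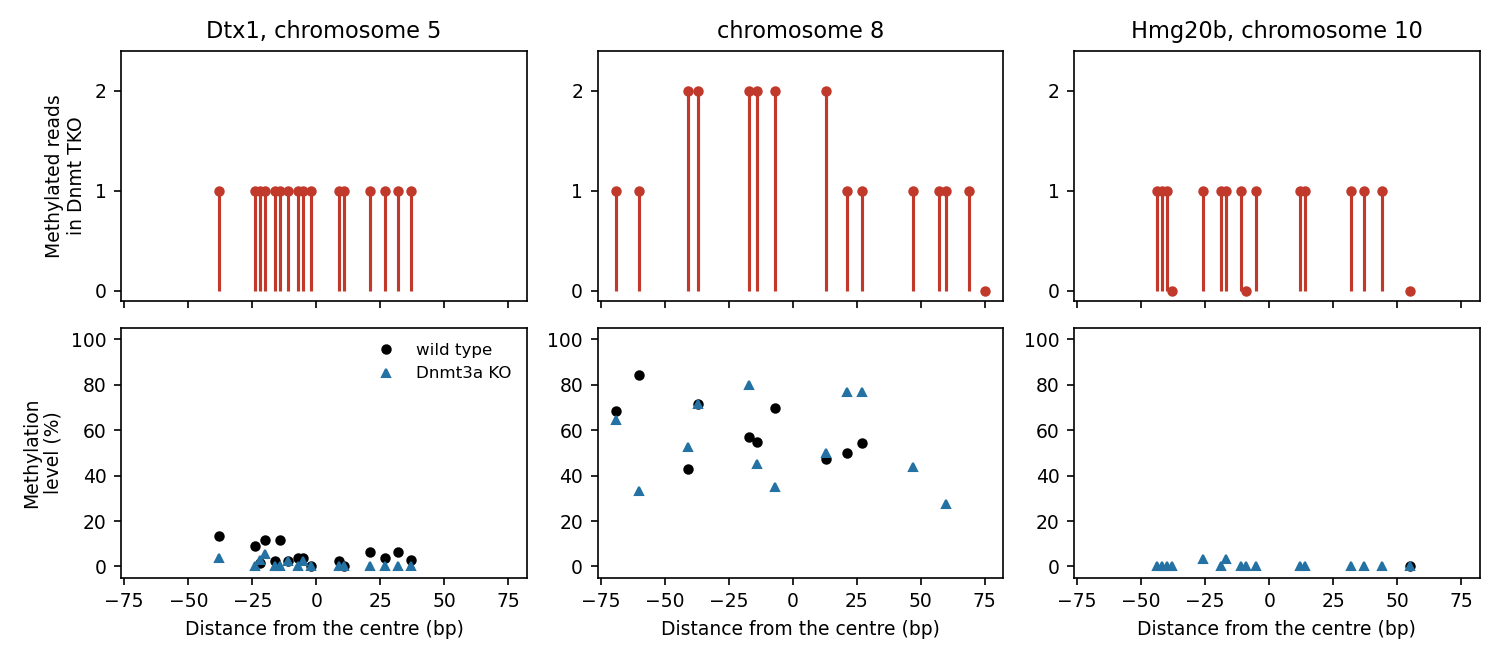
For the runs at Dtx1, on chromosome 8 and at Hmg20b, the upper panels give the methylated Dnmt TKO reads at each CpG and the lower panels the methylation level in wild type (circles) and Dnmt3a KO (triangles), by distance in bp from the centre. Every CpG at Dtx1 has 1 methylated read beside a wild-type mean of 5.16%. The 14 CpGs of the run on chromosome 8 have 1 or 2 beside 60.1%, and the last CpG shown there has 0.

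Gene lists are set against the share of 1.34% over all CpGs. Over the genes and the 2000 bp before them, methylated reads occurred at 7 of 719 CpGs of germline imprinted genes (0.974%, 0.472 to 2.00%), at 7 of 855 of the Hox clusters (0.819%, 0.397 to 1.68%) and at 6 of 442 of pluripotency genes (1.36%, 0.624 to 2.93%). Genes of methylation enzymes had 3 of 400 (0.75%, 0.255 to 2.18%), and the intervals of these 4 lists include 1.34%. Above it were germline genes, with 11 of 345 (3.19%, 1.79 to 5.62%). In that list, 10 of the 11 lay in Ddx4, which encodes an RNA helicase of germ cells. All 10 listed Dnmt TKO CpGs of Ddx4 had methylated reads, 11 of 133, between positions 113442150 and 113442234 of chromosome 13, and none of them had more than 10 reads in wild type or Dnmt3a KO. In the list of multicopy or duplicated sequence, methylated reads occurred at 68 of 818 CpGs (8.31%, 6.61 to 10.4%), 57 of them in Sfi1 and 11 in Mid1. Of the 15 genes of that list, 5 were in the annotation and 4 had CpGs. With every CpG thinned to 11 reads, the share of that list was 1.75%, against 2.67% for germline genes and 0.559% to 0.766% for the other lists. These thinned shares do not compare with 1.34%, and the thinned share of CpGs with 1 copy was 0.971%.

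On mitochondrial DNA, which had 12238 Dnmt TKO reads over 172 CpGs, 24 of them had methylated reads (14%, 9.56 to 19.9%), against 1.34% of all CpGs and 24.7% of those with over 50 reads. There, 0.204% of these reads were methylated (0.138 to 0.301%), beside 0.101% of 12822 in wild type (0.0593 to 0.173%) and 0.211% of 3316 in Dnmt3a KO (0.102 to 0.435%). These intervals overlap.

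Wild type and Dnmt3a KO were compared at each CpG with over 20 reads in both, with Fisher's exact test on methylated and unmethylated reads (two-sided, Benjamini-Hochberg adjusted over 327114 CpGs, called at q under 0.05 and at least 20 percentage points). With 1 library each, the genotype and the library cannot be told apart in it. Of the 2602 tested CpGs with methylated Dnmt TKO reads, 238 were lower in Dnmt3a KO (9.15%, 8.10 to 10.3%), against 2.45% of all CpGs tested. Among those with at least 50% in wild type, 20.5% of 901 CpGs with and 19.1% of 20790 without methylated Dnmt TKO reads were lower, and the intervals (18.0 to 23.3% and 18.6 to 19.7%) overlap. Higher in Dnmt3a KO were 113 of the 2602 (4.34%, 3.62 to 5.20%), against 0.0532% of all CpGs tested. Of the 171 CpGs called higher that had over 10 reads in Dnmt TKO, 113 (66.1%) thus had methylated reads. All 113 had at least 56 Dnmt TKO reads, 67 lay in the 4 satellite-like clusters, and their mean was 29.7% in wild type against 74.0% in Dnmt3a KO. Among CpGs with 1 copy and at most 50 reads, 0 of 2200 with methylated Dnmt TKO reads were higher, which allows up to 0.136% (3 counts). Of the 201246 without, 12 were higher (0.00596%), a share within that limit. Lower were 226 of the 2200 (10.3%) and 5077 of the 201246 (2.52%).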

How the data were processed

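1 RRBS library per genotype was analysed (Dnmt TKO, Dnmt3a KO, wild type). The authors cut DNA with MspI, treated it with bisulfite, amplified it by PCR and aligned reads to mm9, with Bowtie and Trim Galore named in the submitters' processing notes. The authors deposited, per CpG with at least 10 reads, raw counts of all and of methylated reads, and their ratio as a fraction, which equals methylated over all reads. The study's methods name a removal of identical reads for its sequencing data; whether it covered RRBS reads is unclear. CpGs with over 10 reads were used, and shares have Wilson 95% intervals. Values of CpGs without methylated reads were weighted to the Dnmt TKO depths in 6 classes. Gene parts came from GENCODE vM1, and 36-base copies were counted on both strands of mm9. On 700 CpGs of unplaced sequences, neither was determined. Methods were tested on simulated data. Scripts ran in Python 3.11.15 with pysam 0.24.0, pandas 2.3.3, scipy 1.17.1, numba 0.67.0 and numpy 2.4.6. The CpGs, gene lists and tests were chosen with earlier results of these data known. Named were the 10 clusters with the most such CpGs, the 10 highest levels among those with over 20 reads, the 5 with the most methylated reads, and list genes with at least 3. Other minimums of reads, coverage limits, distances and gene sets were tried as alternatives. Separating isolated CpGs from runs, and limiting values to 1 copy and at most 50 reads, were chosen after seeing the data. The sequence and the single values of 1 place are not reported here.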

Additional observations from a re-analysis of the deposited data

Results flagged for a closer look

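The CpGs with exactly 10 reads in Dnmt TKO were left out of the comparisons by the minimum of more than 10 reads. Of their 1267800 reads, 1357 (0.107%, Wilson 95% interval 0.101 to 0.113%) were methylated. They are given because they lie outside the comparisons. At CpGs with 11 reads, which were used, the share was 0.110%.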

How the results depend on the processing

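Depth is the main limit: at the median of 13 reads, 0 methylated reads allow a level of up to 23.1% (3 counts), and 1 library per genotype leaves culture, strain and genotype together. Values that moved beyond the counting interval of the main value are given by alternative, with the cause not tested unless fewer CpGs or reads show it. The differences below are CpGs with minus CpGs without methylated Dnmt TKO reads, in percentage points. Shares called lower or higher in Dnmt3a KO are of the tested CpGs with methylated Dnmt TKO reads. Over all CpGs tested at the main settings, whatever their Dnmt TKO depth, 2.45% were lower and 0.0532% higher. Over 20 Dnmt TKO reads, 2.17% of CpGs had methylated reads. The differences were 13.8 in the wild-type level, 16.3 in the Dnmt3a KO level, 42.2 in neighbours, -3.19 at gene starts and 3.96 in repeated sequence. Of the 833 tested CpGs with methylated reads, 7.56% were lower and 13.6% higher in Dnmt3a KO. With at least 2 methylated reads required, 0.0453% of CpGs and 0.0240% of reads remained, and the differences were 18.8, 36.4, 60, 17 and 17.5. Of the 145 tested CpGs that remained, 0.690% were lower and 55.2% higher. The difference at gene starts thus reversed, and 128 of the 193 CpGs with 2 or more methylated reads had over 50 reads. Of the 193, 70 lay in the satellite-like clusters, near the starts of predicted genes. With the most deeply covered 1% of CpGs left out, 1.26% of CpGs and 0.0870% of reads were methylated, and the differences were 25.4 in wild type, 18.4 in Dnmt3a KO, 56.0 in neighbours and -21.4 at gene starts, with 0 of 2228 tested CpGs called higher by Fisher's exact test, which allows up to 0.135% (3 counts). Without depth classes, they were 23.2, 18.9, 58.0, -19.7 and, in repeated sequence, 3.53. With over 20 reads in the other library, the level differences were 24.2 and 17.6, and on autosomes and X the wild-type difference was 23.7. The neighbour difference was 58.0 within 200 bp and 50 within 5000 bp. Over 10 reads in wild type and Dnmt3a KO gave 6.66% lower and 3.22% higher. Alternatives chosen after seeing the data were leaving out the chromosome 17 cluster, with level differences of 24.5 and 19.4, and counting only neighbours more than 150 bp away, with a neighbour difference of 3.57. The other 22 of 61 comparisons with an alternative stayed within the counting interval.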
